A study of Homo sapiens with 52 samples.

Results

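The EGF receptor family was followed in WI-38 cells through 10 genes, the 7 ligands HBEGF, AREG, EREG, TGFA, EGF, BTC and NRG1 and the 3 receptors EGFR, ERBB2 and ERBB3, chosen by symbol out of 59408 genes listed in every table. WI-38 is an established line of human embryonic lung fibroblasts, labelled wild type, that stops dividing after a limited number of population doublings. Young cells (population doubling level 32 to 46) were exposed for 24 h to 0.009% SDS, a detergent that wounds the plasma membrane (PMD-Sen), to 75 mM KCl, which lets calcium into the cell (Ca2+-Sen), or to 250 nM doxorubicin (DXR), which damages DNA (DDR-Sen). Cells were collected at the end of the treatment (day 0), on each of the 4 following days and again on days 6, 8 and 16, next to untreated young cells and to replicatively senescent cells (RS) passaged to a population doubling level of about 52. The 26 groups had 2 libraries each. The study's methods call the 2 samples of a group independent, and neither they nor the labels say whether these were separate cultures, so the tests measure only the spread between these libraries. All groups were 1 cell line, and RS cells differed from the others in passage as well as in senescence.

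The receptors of this family are tyrosine kinases of the cell surface. EGFR binds EGF, TGFA, AREG, HBEGF, EREG and BTC, ERBB3 binds NRG1, and ERBB2 has no known ligand and serves as the partner of the other receptors. The ligands are made as membrane-anchored precursors and are released by metalloproteases of the ADAM family, so that the amount of mRNA is only one step of their supply. In fibroblasts the family is known for driving proliferation and migration after wounding, and AREG, EREG and NRG1 are often counted among the factors that senescent cells secrete.

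The genes of EREG, AREG and BTC lie together. EREG (chr4:74365143-74388751 in GRCh38) and AREG (chr4:74445134-74455009) stand on the plus strand with 56.4 kb between them, EPGN lies 49.8 kb before EREG, and BTC lies 289.7 kb beyond AREG on the other strand, so that the whole cluster spans 486 kb. HBEGF is on chromosome 5 (chr5:140332843-140346631, minus strand) and EGF on another part of chromosome 4 (chr4:109912884-110012266, plus strand). The group means of AREG, EREG, HBEGF and EGF ranged most widely among the 5 ligands that passed the filter on low counts. In the tests below the cluster neighbours AREG and EREG both rose on day 1 of SDS. On day 0 of SDS EREG rose and EGF fell, while the rise of AREG did not pass. On days 0 and 1 of DXR AREG passed and EREG did not. Whether promoter sequence bears on these changes was not tested. The promoters of AREG, EREG, HBEGF and EGF are shown. Each runs from 250 bases before to 50 bases after the gene start in RefSeq (GRCh38.p14): AREG chr4:74444886-74445185, EREG chr4:74364895-74365194 and EGF chr4:109912633-109912932 on the plus strand, and HBEGF chr5:140346554-140346853 on the minus strand. Capitals mark matches on either strand to 4 motifs. They are the AP-1 site TGANTCA, the cyclic AMP response element (CRE) TGACGTCA, the TATA box TATAAA and the GC box GGGCGG, and none of the matches shown overlaps one of another motif.
AREG: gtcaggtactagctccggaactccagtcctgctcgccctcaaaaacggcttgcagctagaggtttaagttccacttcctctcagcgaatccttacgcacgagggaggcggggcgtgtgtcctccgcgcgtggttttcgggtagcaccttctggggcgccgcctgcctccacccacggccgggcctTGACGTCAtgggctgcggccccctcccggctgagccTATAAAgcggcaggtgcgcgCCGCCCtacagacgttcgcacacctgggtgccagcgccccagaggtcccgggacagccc
EREG: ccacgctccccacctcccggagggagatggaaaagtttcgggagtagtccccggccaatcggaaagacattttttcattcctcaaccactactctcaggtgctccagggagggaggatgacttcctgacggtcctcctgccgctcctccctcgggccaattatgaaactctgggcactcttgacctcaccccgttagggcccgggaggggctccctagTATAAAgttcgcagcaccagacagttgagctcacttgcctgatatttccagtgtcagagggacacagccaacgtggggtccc
HBEGF: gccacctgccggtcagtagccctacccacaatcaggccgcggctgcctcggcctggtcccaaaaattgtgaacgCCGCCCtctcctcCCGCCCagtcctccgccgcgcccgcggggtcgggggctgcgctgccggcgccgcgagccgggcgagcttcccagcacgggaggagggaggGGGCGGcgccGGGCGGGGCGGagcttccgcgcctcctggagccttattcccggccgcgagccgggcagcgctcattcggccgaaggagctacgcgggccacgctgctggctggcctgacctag
EGF: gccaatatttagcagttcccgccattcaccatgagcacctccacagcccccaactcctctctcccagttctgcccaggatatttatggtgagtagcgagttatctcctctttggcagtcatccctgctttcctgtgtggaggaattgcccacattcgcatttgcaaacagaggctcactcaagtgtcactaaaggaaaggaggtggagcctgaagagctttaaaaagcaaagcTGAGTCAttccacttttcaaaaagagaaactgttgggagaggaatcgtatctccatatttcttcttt

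The AREG window holds a CRE whose first base is 65 bases before the start, a TATA box whose first base is 29 bases before it and a GC box nearer to it. The EREG window holds a TATA box at 32 bases before the start and neither a CRE nor an AP-1 match, and the EGF window holds an AP-1 match at 17 bases before the start. HBEGF has 5 GC boxes in this window, of which the 2 nearest to the start share a base, and no TATA box. Among 35116 promoters of the same length, 7.71% hold the AP-1 site, 1.85% the CRE, 11.53% the TATA box and 44.95% the GC box on either strand. A match describes letters and is not a measured binding site.

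The levels are normalized counts, that is, counts of reads per gene in a library divided by the size factor of that library. They were recovered for each library from the mean over 4 libraries that the authors deposited, as described under the processing. The 2 libraries of a group are named the larger and the smaller by their total count, and values are given in that order. Total counts ran from 15.3 to 19.0 M (M, 1e6 counts) in the untreated libraries, the smallest of all, from 47.1 to 55.5 M in RS, and from 19.3 to 53.0 M after the 3 treatments. All 8 fibroblast markers (collagens, VIM, PDGFRB, THY1, DCN and LUM) had a mean of 10 normalized counts or more, with summed group means from 318216 to 829506. Of the epithelial markers 3 of 6 did, with summed group means from 431 to 2947, most of them KRT19. KRT5 was near 0, and CDH1 and ESRP1 reached 13.2 and 5.24 in their highest groups. Of the endothelial markers 3 of 4 had a mean of 10 or more, with sums from 1357 to 7274, most of them TEK. PECAM1 reached 142 in its highest group, and CDH5 was near 0. Of the leukocyte markers only CD14 had such a mean, with list sums from 19.7 to 273.3. PTPRC and CD68 reached 26.8 and 6.93 in their highest groups, and CD3E and MS4A1 were near 0. In such bulk RNA fewer cells that express a gene and less of its RNA per cell cannot be told apart.

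By counts per kb of annotated exon the mRNAs of EGFR and ERBB2 lay above those of all 7 ligands. The length covers all annotated exons of a gene, not those of the transcripts present. The order thus depends on the annotation, and genes with many isoforms, such as NRG1, may be understated. Per kb of exon and averaged over the 26 groups, EGFR had 635.4 and ERBB2 411.2 normalized counts, followed by NRG1 with 189.0, HBEGF with 188.9, EREG with 127.5 and AREG with 60.2. EGF had 5.73, ERBB3 1.92, BTC 1.75 and TGFA 0.567 on the same scale. ERBB3, which binds NRG1, was thus far below the other receptors. In untreated cells the order was EGFR (704.9), ERBB2 (377.1), HBEGF (199.8), NRG1 (103.2), EREG (92.3) and AREG (42.3). TGFA and BTC had means of 2.81 and 4.94 normalized counts over the groups, below the minimum of 10, and were not tested.

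Differences from untreated cells were tested for the 7 genes that passed the filter in 25 comparisons, and for ERBB2 in 24, because its DXR day 1 counts could not be recovered. The test was limma on log2(normalized count + 1), two-sided, with Benjamini-Hochberg adjustment over all 12370 genes tested in a comparison, and called means an adjusted p under 0.05. Values of ERBB2 come from a second fit of 15629 genes that leaves out missing libraries, in which 30.3% of all tests of the 24 comparisons were called. Of the 175 tests of the 7 genes 54 were called, 23 of them for NRG1, and 70 had an unadjusted p under 0.05. All 25 comparisons share the 2 untreated libraries, so their errors are not independent. A call is described as kept where it passed the test whichever 1 library was left out.

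These counts are to be read against the share of all tested genes called. Against untreated cells that share was 52.0% on day 0 of SDS, 27.0% on day 1, 16.2% on day 2, 18.2% on day 3, 21.7% on day 4, 28.1% on day 6, 23.7% on day 8 and 40.6% on day 16. After KCl it was 56.5% on day 0, 14.6% on day 1, 4.22% on day 2, 13.5% on day 3, 17.3% on day 4, 24.2% on day 6, 39.8% on day 8 and 15.0% on day 16. After DXR it was 37.2% on day 0, 26.9% on day 1, 17.6% on day 2, 19.0% on day 3, 22.0% on day 4, 33.8% on day 6, 33.8% on day 8 and 43.5% on day 16, and in RS it was 44.4%. Among the 7 member genes 5 were called on day 0 of SDS, 4 on day 1 of SDS, on day 6 of DXR and in RS, and 0 to 3 in the other 21 comparisons. Day 2 of KCl was the only one of the 25 with 0 members called by limma, with 2 at an unadjusted p under 0.05, and was also the one with the fewest genes called in all.

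**Figure D1:**
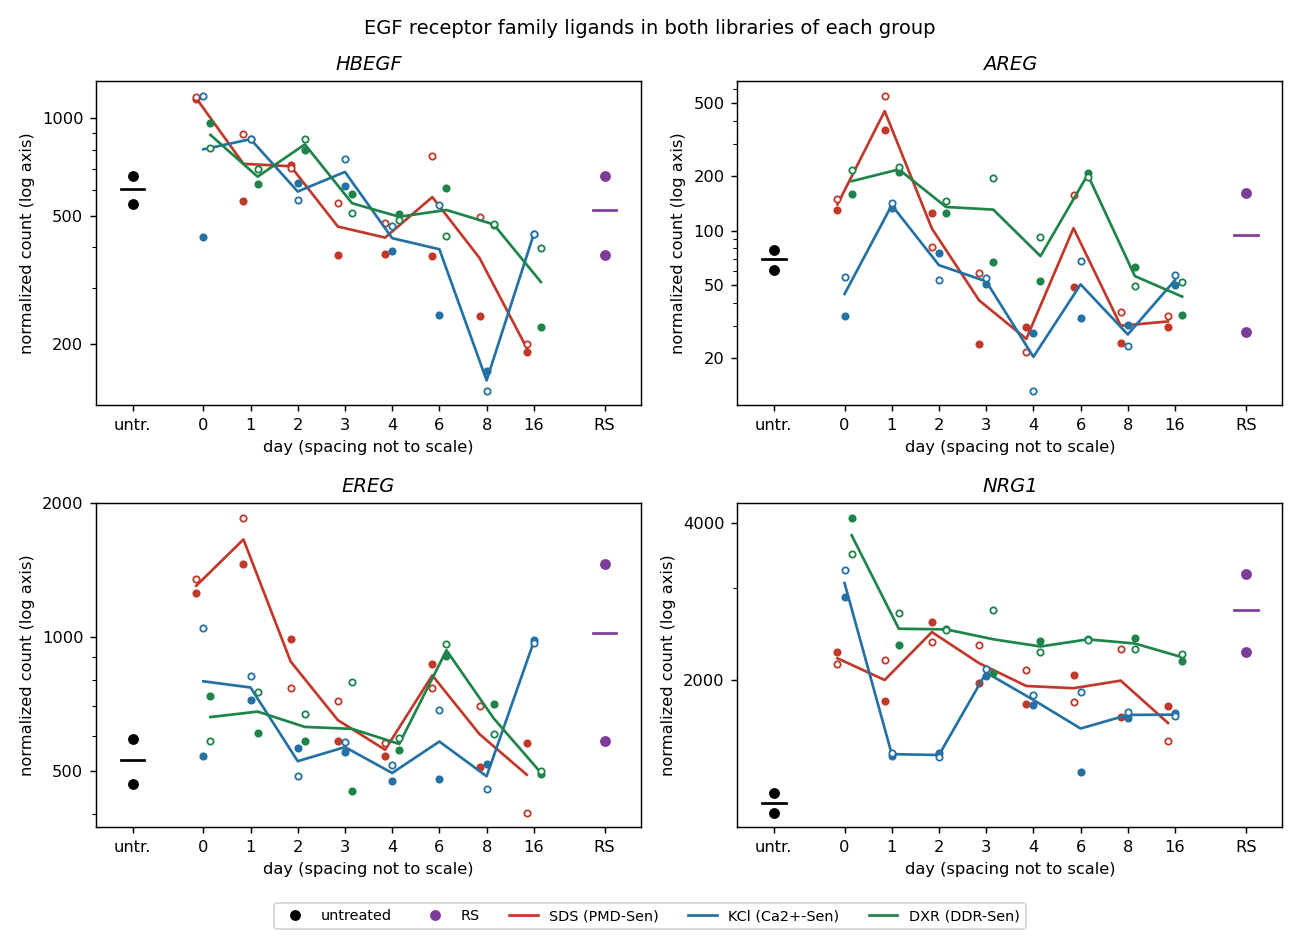
Normalized counts (log axis) of 4 ligands by day after SDS, KCl or DXR, with untreated cells on the left and RS on the right. Filled points are the larger and open points the smaller library of each treated group, lines and bars join or mark group means (n = 2), and days are not drawn to scale. EREG and AREG peak on day 1 of SDS, the group mean of HBEGF is highest on day 0 of SDS and lowest on day 8 of KCl, and NRG1 lies above both untreated libraries in all other groups.

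NRG1 (neuregulin 1, the ligand of ERBB3 and ERBB4) was higher than in untreated cells in 23 of 25 comparisons. The untreated libraries had 1218 and 1119 normalized counts, and no library of any other group had fewer than 1335. The level was highest on day 0 of DXR, at 4085 and 3480, a log2 fold change of 1.69 (SE 0.15, adjusted p = 6.45e-11). It was 2880 and 3253 on day 0 of KCl (1.39, adjusted p = 1.79e-09), and 2262 and 2145 on day 0 of SDS (0.92, adjusted p = 4.38e-06). The SE is 0.15 for every NRG1 value here. The gene stayed high to the end of the DXR course, at 2182 and 2247 on day 16 (0.92, adjusted p = 5.98e-06), and in RS it was 2262 and 3198 (1.20, adjusted p = 5.61e-08).

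The exceptions for NRG1 were days 1 and 2 of KCl, where the level fell back to 1437 and 1457 and to 1454 and 1429. Both pairs lay above both untreated libraries, with log2 fold changes of 0.31 (adjusted p = 0.163) and 0.30 (adjusted p = 0.254) that did not pass the test. It was 2036 and 2104 again on day 3 (0.83, adjusted p = 0.000379). Between 1.02 and 1.10 on the log2 scale separated days 1 to 3 of DXR from untreated cells, and after SDS the differences ran from 0.50 on day 16 to 1.08 on day 2. Of the 23 calls 20 were kept whichever library was left out. Those on day 16 of SDS, with 0.39 without its larger and 0.44 without the smaller untreated library, on day 6 of KCl, with 0.19 without its smaller library and 0.51 or 0.39 without either untreated one, and on day 16 of KCl, with 0.55 or 0.57 without either of its own libraries and 0.50 without the smaller untreated one, were not. The counts cover all transcripts of NRG1, which has many isoforms, and do not tell them apart.

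EREG (epiregulin, a ligand of EGFR and ERBB4) rose after SDS. Untreated libraries had 467 and 589 normalized counts, against 1254 and 1353 on day 0 of SDS and 1460 and 1854 on day 1. Both pairs lay above every untreated library. The log2 fold changes were 1.31 (adjusted p = 0.000275) and 1.65 (adjusted p = 6.37e-05), each with an SE of 0.29, and both calls were kept. On day 2 the libraries had 992 and 770 counts (0.73, adjusted p = 0.0775), and by day 16 they had 578 and 403, the first within and the second below the untreated range (-0.12, adjusted p = 0.776).

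EREG was also called in 3 other groups. On day 6 of DXR the libraries had 905 and 962 counts, a log2 fold change of 0.83 (adjusted p = 0.0243). On day 16 of KCl they had 983 and 970 (0.89, adjusted p = 0.0318), while on day 8 of KCl they had had 518 and 455. In RS they had 1462 and 584 (0.81, adjusted p = 0.0206). The RS libraries disagreed, the smaller one lying within the untreated range, and the difference was 0.15 without the larger RS library, 1.48 without the smaller and 0.65 without the larger untreated library. Those of KCl day 16 and DXR day 6 also lost the call, at 0.89 and 0.90 without either KCl library and 0.73 and 1.06 without either untreated one, and at 0.87 and 0.79 without either DXR library and 0.66 without the larger untreated one.

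AREG (amphiregulin, a ligand of EGFR alone) had the widest range among the members with counts in every library, from 13.2 to 548.9 normalized counts. It was at 60.9 and 78.7 in untreated cells and at 356 and 549 on day 1 of SDS, the highest group. The log2 fold change was 2.66 (SE 0.56, adjusted p = 0.000536) and the call was kept, with 2.34 to 2.97 over the fits without 1 library. The libraries of day 0 of SDS had 130 and 148 counts, above both untreated ones, without passing the test (0.99, adjusted p = 0.138). By day 4 of SDS they were at 29.4 and 21.5, below both untreated ones, again without a call (-1.42, adjusted p = 0.0643).

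AREG was called after DXR on days 0, 1 and 6 and not on the days between. The libraries had 159 and 214 counts on day 0 (log2 fold change 1.40, adjusted p = 0.0465), 210 and 223 on day 1 (1.63, adjusted p = 0.0277) and 208 and 197 on day 6 (1.53, adjusted p = 0.0318). All of these lay above every untreated library, but each of the 3 calls was lost without either untreated library or either of its own, at 1.18 to 1.62, 1.45 to 1.81 and 1.35 to 1.72. On day 3 of DXR the libraries disagreed, at 67.1 and 193 (0.71, adjusted p = 0.409). KCl gave the only fall that was called, on day 4, at 27.3 and 13.2 counts (-1.81, adjusted p = 0.0228), and it was lost at -1.31 without the smaller KCl library and at -1.99 and -1.62 without the larger and the smaller untreated one. In RS the libraries had 161 and 27.8 counts, one above and one below the untreated range (-0.04, adjusted p = 0.964).

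HBEGF (heparin-binding EGF-like growth factor, a ligand of EGFR and ERBB4) was highest on day 0 of SDS and fell late. Untreated libraries had 543 and 664 counts, and those of day 0 of SDS had 1148 and 1163, a log2 fold change of 0.94 (SE 0.37, adjusted p = 0.0315). That call was lost without any of the 4 libraries, with values from 0.80 to 1.09. On day 16 of SDS HBEGF was at 190 and 200 (-1.62, adjusted p = 0.000663) and on day 8 of KCl at 166 and 144 (-1.95, adjusted p = 7.88e-05), both below every untreated library, and both calls were kept. On day 16 of DXR it was at 226 and 398 (-0.998, adjusted p = 0.0277), which was lost at -0.59 without the larger DXR library and at -0.85 without the smaller untreated one.

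The fall in HBEGF after KCl was not called at the end of the course. On day 16 of KCl the libraries had 438 and 440 counts (-0.45, adjusted p = 0.45). Both lay below both untreated libraries and above both of day 8, and days 8 and 16 were not tested against each other. The libraries of day 0 of KCl disagreed, at 430 and 1176 counts, one below and one above both untreated libraries. In RS they had 378 and 664 (-0.26, adjusted p = 0.599).

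EGF itself was a low-abundance gene, and its day 0 response depended on the treatment. Untreated libraries had 24.7 and 24.2 normalized counts. The libraries of day 0 of SDS had 4.99 and 4.12, the lowest group (log2 fold change -2.20, SE 0.42, adjusted p = 5.20e-05), and on day 0 of KCl 84.8 and 80.4, the highest (1.72, adjusted p = 0.000852). Both calls were kept. Those of day 0 of DXR had 7.02 and 14.6 counts (-1.18, adjusted p = 0.0262), which was lost at -0.70 without the larger DXR library and at -1.17 and -1.20 without the larger and the smaller untreated one. The library counts behind the lowest EGF values are as few as 3 reads, so that a fold change there has a wide counting error of its own.

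After SDS EGF passed from the lowest to the second highest level within 2 days. On day 1 it was at 26.8 and 30.1, within reach of the untreated level (0.21, adjusted p = 0.76), and on day 2 at 64.3 and 98.7 (1.66, adjusted p = 0.00701). On day 3 it was at 58.3 and 68.6 (1.34, adjusted p = 0.0251), and from day 4 on it was not called. EGF was also called higher on day 8 of DXR, at 50.6 and 56.4 (1.10, adjusted p = 0.043), and in RS, at 47.4 and 77.2 (1.27, adjusted p = 0.014). None of these 4 calls was kept, that of day 2 of SDS being lost only without its smaller library, at 1.36, those of day 3 of SDS and day 8 of DXR without any of their libraries or the untreated ones, at 1.22 to 1.45 and 1.02 to 1.17, and that of RS at 0.93 without its smaller library and at 1.29 and 1.26 without either untreated one.

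TGFA (transforming growth factor alpha, a ligand of EGFR) had no read in either untreated library and 59 and 16 reads in the RS libraries, or 31.8 and 11.1 normalized counts. Summed over the group, RS was 8.38-fold above the level that 3 counts over both untreated libraries would give. That level is the upper limit that a count of 0 allows, and it covers counting error in the untreated libraries alone. The RS level was taken as it stands, although its libraries differed, so 8.38 is not a lower limit of the difference. In the other groups no library had more than 14.2 normalized counts. BTC (betacellulin, a ligand of EGFR and ERBB4) had 0 and 14.1 normalized counts in untreated cells and 21.0 and 18.8 in RS, its highest group, and no more than 13.9 in any treated library. The untreated libraries thus disagreed for BTC, and no comparison was made.

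**Figure D2:**
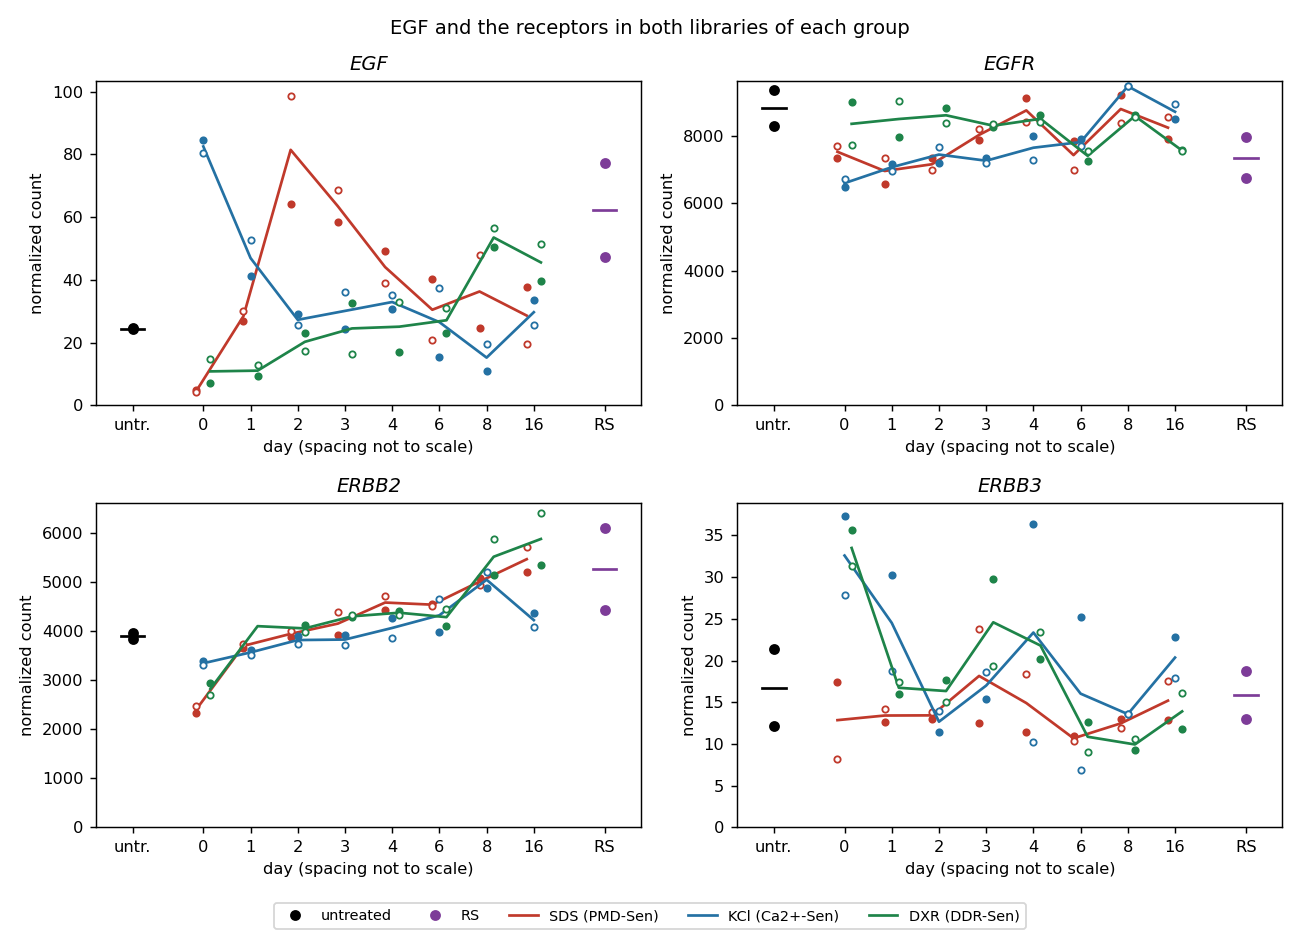
Normalized counts (linear axes) of EGF, EGFR, ERBB2 and ERBB3 by day, drawn as for the other ligands. The ERBB2 mean of DXR day 1 is derived from the authors' mean, since its library counts could not be recovered; ERBB2 is lowest on day 0 of SDS and EGFR varies little.

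EGFR, the receptor shared by most of these ligands, varied less than any ligand. Untreated libraries had 9366 and 8286 normalized counts, and over all 26 groups the group means ran from 6593 on day 0 of KCl to 9469 on day 8 of KCl, a 1.44-fold range. The gene was lower than in untreated cells in 10 of 25 comparisons, with log2 fold changes of the called ones from -0.42 to -0.22 (SE 0.08). The largest fall was on day 0 of KCl, at 6472 and 6714 (-0.42, adjusted p = 4.27e-05), and it was the only EGFR call that was kept. The other 9, on days 0, 1, 2 and 6 of SDS, days 1 and 3 of KCl, days 6 and 16 of DXR and in RS, were all lost without the larger untreated library, where the differences were -0.13 to -0.26. All of these but that of day 1 of SDS were also lost without a library of their own group. On the opposite strand the EGFR locus (chr7:55019021-55211628, plus strand) overlaps the antisense gene EGFR-AS1, and as the strand setting of the counting is not stated, reads of the 2 cannot be told apart.

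ERBB2, the receptor without a ligand of its own, fell on day 0 and rose late. Untreated libraries had 3954 and 3830 counts. Those of day 0 of SDS had 2329 and 2469 (log2 fold change -0.70, SE 0.10, adjusted p = 5.29e-07) and on day 0 of DXR 2938 and 2697 (-0.47, adjusted p = 0.000331), both below every untreated library. The KCl libraries of day 0 had 3377 and 3302, a difference that did not pass (-0.22, adjusted p = 0.0564). From day 1 to day 6 there was no call among the 14 comparisons for which a count was recovered. Both libraries lay above both untreated ones on days 4 (4433 and 4717) and 6 (4555 and 4508) of SDS. The same held for day 6 of KCl and days 2 to 6 of DXR, while on day 1 of SDS and KCl both lay below. Over all 24 comparisons ERBB2 was called higher in 6 and lower in 2, and 11 had an unadjusted p under 0.05.

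On day 16 ERBB2 was at 5203 and 5710 after SDS (0.49, adjusted p = 0.000193) and at 5340 and 6397 after DXR (0.59, adjusted p = 1.36e-05), above every untreated library. On day 8 it was called after SDS (0.36, adjusted p = 0.00703), KCl (0.37, adjusted p = 0.00303) and DXR (0.50, adjusted p = 0.000189), while on day 16 of KCl it was back at 4364 and 4070 (0.12, adjusted p = 0.467). In RS the libraries had 4413 and 6100 (0.41, adjusted p = 0.000904). The RS call was lost at 0.18 without the smaller RS library and that of day 8 of SDS at 0.34 without its larger or the smaller untreated library, and the other 6 ERBB2 calls were kept. ERBB2 (chr17:39687914-39730426, plus strand) overlaps PGAP3 and MIEN1 on the opposite strand, with the same limit as for EGFR.

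ERBB3, the receptor that pairs NRG1 with ERBB2, was at 21.4 and 12.1 normalized counts in untreated cells and between 6.83 and 37.4 in all libraries. It was called by limma against untreated cells in 0 of the 25 comparisons, with 2 at an unadjusted p under 0.05. The highest pairs were those of day 0 of DXR, at 35.7 and 31.3 (log2 fold change 1.01, SE 0.46, adjusted p = 0.0857), and of day 0 of KCl, at 37.4 and 27.8 (0.96, adjusted p = 0.0768), both above the untreated libraries.

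**Figure D3:**
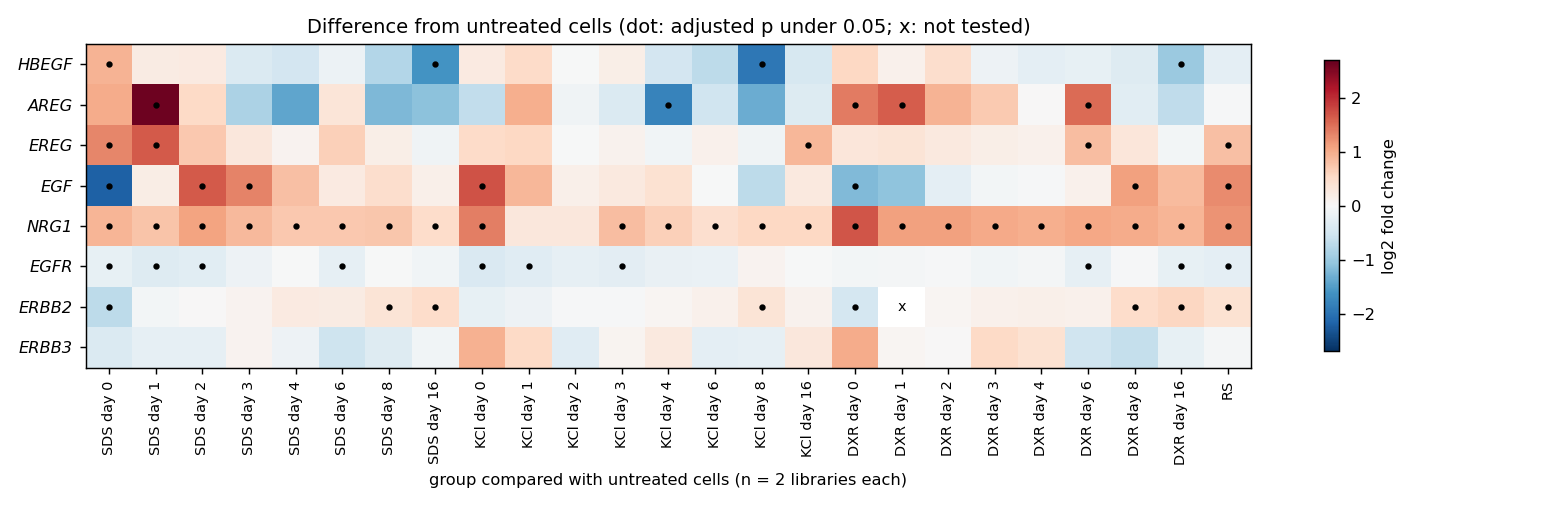
Log2 fold change of 8 genes (rows) against untreated cells in 25 groups (columns), from blue (lower) to red (higher), on a scale that ends at 2.7 in either direction. A dot marks an adjusted p under 0.05 and the cross marks ERBB2 on day 1 of DXR, which was not tested; NRG1 has dots in 23 columns and ERBB3 in 0.

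The treatments were then compared with each other on the same day, which does not use the untreated libraries. Of 168 tests of the 7 genes 37 were called, and 54 had an unadjusted p under 0.05. The share of all tested genes called for SDS against DXR was 53.3% on day 0, 32.2% on day 1, 18.9% on day 2, 6.19% on day 3, 0.671% on day 4, 1.39% on day 6, 2.04% on day 8 and 3.73% on day 16. For SDS against KCl it was 60.9%, 16.6%, 8.55%, 0.105%, 0.0970%, 0.234%, 15.9% and 20.9% on the same days, and for KCl against DXR 57.6%, 22.1%, 9.32%, 4.45%, 3.00%, 4.70%, 18.3% and 24.7%. SDS and DXR differed in 4 of the 7 genes on day 0, 3 on day 1, 2 on day 2, 1 on day 3 and 0 on days 4, 6, 8 and 16. SDS and KCl differed in 6, 3 and 2 genes on days 0, 1 and 2, in 0 on days 3, 4 and 6, in 1 on day 8 and in 2 on day 16, and KCl and DXR in 3, 3, 1, 0, 0, 2, 3 and 1. The 9 comparisons with 0 calls by limma had 0 to 2 members each at an unadjusted p under 0.05.

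EREG separated SDS from both other treatments early. On day 0 the log2 difference from DXR was 0.99 (SE 0.29, adjusted p = 0.00428) and from KCl 0.79 (adjusted p = 0.0178). On day 1 it was 1.28 from DXR (adjusted p = 0.00078) and 1.10 from KCl (adjusted p = 0.00766), where the DXR libraries had 608 and 751 counts and the KCl libraries 723 and 817. Only the difference from DXR on day 1 was kept. The others were lost without 1 library, at 0.82 without the smaller DXR library of day 0, at 0.31 without the larger KCl and 0.73 without the smaller SDS library of day 0, and at 0.92 without the smaller SDS and 1.01 without the larger KCl library of day 1.

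AREG was higher after SDS than after KCl on both days, by 1.65 on day 0 (SE 0.56, adjusted p = 0.011) and 1.67 on day 1 (adjusted p = 0.0357), with 134 and 142 counts in the KCl libraries of day 1. It was lower after KCl than after DXR on day 0, with 34.0 and 55.6 counts against 159 and 214 (-2.06, adjusted p = 0.00205), and this difference was kept. On day 1 SDS and DXR were not told apart for AREG (1.03, adjusted p = 0.164), although the SDS pair lay above the DXR pair. The SDS differences from KCl were lost, on day 0 at 1.55 without the smaller SDS and 1.30 without the larger KCl library, and on day 1 without any of the 4, at 1.36 to 1.99.

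EGF gave the largest differences between treatments among the members. It was lower after SDS than after KCl on day 0 (log2 difference -3.92, SE 0.42, adjusted p = 1.36e-09) and higher after KCl than after DXR (2.90, adjusted p = 5.74e-07). Both were kept, as was the difference between KCl and DXR on day 1 (2.00, adjusted p = 0.000687), when the DXR libraries were still at 9.35 and 12.8. On day 2 the order had changed, with EGF higher after SDS than after DXR (1.94, adjusted p = 0.00117, kept) and than after KCl (1.51, adjusted p = 0.0234), the latter lost without any of the 4 libraries at 1.21 to 1.82. On day 8 EGF was lower after KCl, at 11.0 and 19.5, than after DXR (-1.80, adjusted p = 0.00341), lost at -1.41 without the larger KCl library.

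For NRG1, DXR exceeded SDS on day 0 (SDS minus DXR -0.78, SE 0.15, adjusted p = 4.57e-05) and KCl on days 1 and 2 (KCl minus DXR -0.79, adjusted p = 0.000162, and -0.80, adjusted p = 0.000288), and these 3 were kept. SDS exceeded KCl on day 2 (0.78, adjusted p = 0.00194), which was lost at 0.71 without the larger SDS library. ERBB3 was lower after SDS than after DXR and KCl on day 0, with 17.5 and 8.24 counts (-1.40, SE 0.46, adjusted p = 0.011, and -1.35, adjusted p = 0.0121), and both were lost without the smaller SDS library, at -0.90 and -0.85, and without the larger DXR or KCl library, at -1.31 and -1.14. Late in the course HBEGF was lower on day 8 after KCl than after DXR (-1.60, SE 0.37, adjusted p = 0.00296, kept). On day 16 it was lower after SDS than after KCl (-1.17, adjusted p = 0.0219), and EREG was higher after KCl than after SDS (SDS minus KCl -1.02, adjusted p = 0.0106) and DXR (0.98, adjusted p = 0.0115). These 3 day 16 differences were lost without 1 library, in ranges of -1.20 to -1.13, -1.27 to -0.76 and 0.97 to 0.99, the value farthest from the one with all libraries being that of EREG without the smaller SDS library, -0.76.

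In the second fit ERBB2 was lower on day 0 after SDS than after KCl (-0.48, SE 0.10, adjusted p = 0.000105) and on day 16 after KCl than after DXR (-0.47, adjusted p = 0.000586), and both were kept. EGFR was lower after KCl than after DXR on day 0 (-0.34, SE 0.08, adjusted p = 0.000539), which was kept. It was also lower on day 1 after SDS (-0.29, adjusted p = 0.00556) and KCl (-0.26, adjusted p = 0.0162) than after DXR. These day 1 differences were lost at -0.21 without the larger SDS library, at -0.24 without the smaller KCl library and at -0.20 and -0.17 without the smaller DXR library.

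The other 11 called differences of the 7 genes and 3 of ERBB2 were all lost without 1 library. EGF was lower after SDS than after DXR on day 0 (-1.02, adjusted p = 0.0419) and higher on days 1 and 3 (1.30, adjusted p = 0.0174, and 1.41, adjusted p = 0.0396), with values nearest to 0 of -0.54, 1.09 and 0.93 without a DXR library. AREG and NRG1 were lower after KCl than after DXR on day 6 (-2.07, adjusted p = 0.0261, and -0.59, adjusted p = 0.0168), at -1.55 and -0.33 without the larger KCl library. HBEGF was higher after SDS than after KCl on day 8 (1.17, adjusted p = 0.0275), at 0.67 without the smaller SDS library. NRG1 differed between SDS and KCl on day 0 (-0.47) and day 1 (0.46) and between KCl and DXR on day 8 (-0.45), and EGFR between SDS and DXR on day 2 (-0.27) and between SDS and KCl on day 0 (0.19), with the calls lost at -0.39, 0.33, -0.42, -0.23 and 0.16. ERBB2 was lower on day 0 after DXR than after KCl (KCl minus DXR 0.25, adjusted p = 0.0325), lower still after SDS (SDS minus DXR -0.23, adjusted p = 0.0478), and higher on day 16 after SDS than after KCl (0.37, adjusted p = 0.00662). These 3 were lost at 0.18, -0.17 and 0.30, without the smaller and the larger DXR library of day 0 and the smaller SDS library of day 16.

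The step from the end of the treatment to the first day after the wash was tested within each treatment, where 53.0% of all tested genes were called for SDS, 56.7% for KCl and 18.4% for DXR. Of 21 tests of the 7 genes 5 were called. EGF rose after SDS from 4.99 and 4.12 to 26.8 and 30.1 counts (log2 2.41, SE 0.42, adjusted p = 1.36e-05, kept). AREG rose after SDS (1.66, SE 0.56, adjusted p = 0.0122) and after KCl, from 34.0 and 55.6 to 134 and 142 (1.64, adjusted p = 0.0127). The AREG calls were lost at 1.57 and 1.35 without the larger library of day 0 and the smaller of day 1 of SDS, and at 1.29 and 1.60 without the same libraries of KCl.

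NRG1 fell over this step after KCl (-1.08, SE 0.15, adjusted p = 2.13e-07, kept) and after DXR (-0.59, adjusted p = 0.0046), the latter lost at -0.48 and -0.49 without the larger library of either day. In the second fit ERBB2 rose after SDS (0.62, SE 0.10, adjusted p = 3.23e-06, kept). Whether the step differed between treatments was tested as well, where 40.8% of all genes were called for SDS against DXR, 50.6% for SDS against KCl and 43.9% for KCl against DXR. The members called were EGF for SDS against DXR and KCl, and NRG1 and, in the second fit, ERBB2 for SDS against KCl. AREG was not among them (SDS against DXR 1.43, SE 0.79, adjusted p = 0.15).

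**Figure D4:**
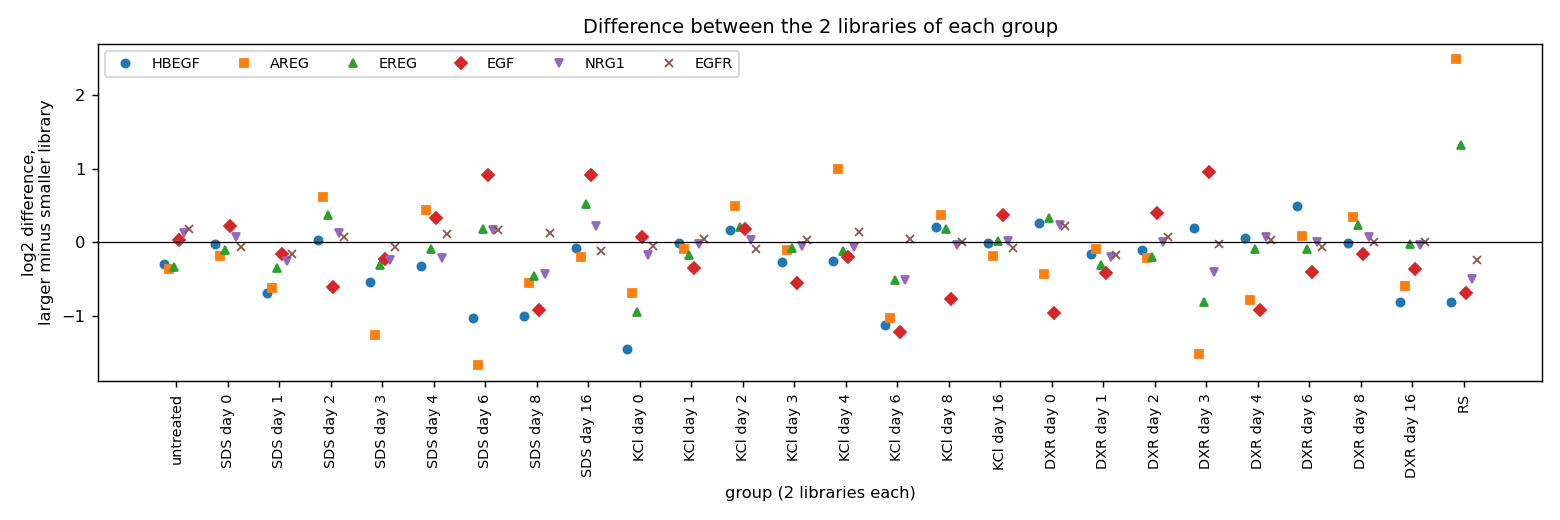
Log2 difference in normalized count between the larger and the smaller library of each of the 26 groups, for 5 ligands and EGFR. The horizontal line marks no difference, and EGFR lies close to it in all groups. AREG and EREG have their widest gaps in RS, where they are higher in the larger library. AREG on day 6 of SDS and day 3 of DXR and HBEGF on day 0 of KCl are also far from the line, higher in the smaller library.

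The ligands and EGFR differed in how far the 2 libraries of a group agreed. In RS AREG, EREG and TGFA were higher in the larger library, at 161 against 27.8, 1462 against 584 and 31.8 against 11.1 counts, while HBEGF, EGF, NRG1, EGFR and ERBB2 were lower in it. The RS libraries were thus no uniform pair, and each RS value above is to be read with its range. Other pairs disagreed as well, such as that of AREG on day 6 of SDS, at 48.7 and 157 counts.

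The 4 genes whose likeness to others was sought were compared with all tested genes of a mean of at least 100. The measure was Pearson's r of the group means on the log2 scale over 26 groups. Most groups are days of the same time courses and so not independent, and r is only a description. Nearest to HBEGF were MRPS18C (r = 0.91), DUSP1 (0.89), a phosphatase induced by stress, and YRDC (0.87). Nearest to AREG were STC1 (0.88), a secreted glycoprotein, PLXNA2 (0.87), a semaphorin receptor, and CHST11 (0.84). Nearest to EREG were GK (0.84), the glycerol kinase, TMEM38B (0.84) and LINC01128 (0.78), and to EGFR LAMA2 (0.78), a laminin chain, PRSS12 (0.78) and MN1 (0.77). Among the members themselves r was 0.67 between AREG and EREG and between HBEGF and AREG, 0.54 between HBEGF and EREG, and -0.47 between EREG and EGFR.

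The other genes of the pathway were taken as fixed lists and tested in the second fit, because many of them lack a count in some library. Their calls were not checked by leaving out a library. In 8 of the comparisons with untreated cells the share of all genes called there was 55.4% on day 0 and 30.5% on day 1 of SDS, 59.1% on day 0 of KCl, 39.9% on day 0 of DXR, 43.5%, 16.4% and 46.6% on day 16 of SDS, KCl and DXR, and 47.2% in RS. Of 5 further family members only NRG2, another neuregulin, passed the filter. It was at 39.3 and 23.0 counts in RS against 1.65 and 10.1 in untreated cells (log2 fold change 2.52, SE 0.60, adjusted p = 0.000777) and was higher in 4 of 25 comparisons. The untreated libraries thus disagreed for NRG2, and its mean over the groups, 10.4, was just above the minimum of 10. EPGN, NRG3, NRG4 and ERBB4, the other receptor for neuregulins, had means of 2.98, 0.508, 5.65 and 2.61 normalized counts.

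Genes of ligand shedding moved in both directions. At the end of the SDS treatment 2 of 6 with a count were higher and 2 lower (median log2 fold change -0.13, against -0.02 over all genes), and on day 0 of KCl 2 of 8 were higher and 3 lower (median -0.07). ADAM17, the main protease that releases EGFR ligands, was at 2639 and 2449 counts on day 0 of SDS against 1330 and 1291 in untreated cells (0.96, SE 0.10, adjusted p = 2.25e-09), and was higher in 2 comparisons and lower in 8. ADAM12, which can release HBEGF, was lower in 19 of 25 and higher in 1, down to 379 and 408 on day 4 of DXR against 821 and 938 (-1.16, SE 0.13, adjusted p = 2.87e-08). RHBDF2, which helps ADAM17 mature, was at 236 and 266 on day 0 of KCl against 718 and 480 (-1.22, SE 0.15, adjusted p = 4.98e-08), and was lower in 3 comparisons and higher in 2.

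Of the 16 adaptors and kinases that carry the signal, 15 had a count on day 0 of SDS, where 4 were higher and 7 lower (median -0.20), and all 16 on day 0 of KCl, where 7 were higher and 3 lower (median 0.18). In RS 8 were higher and 2 lower (median 0.21). The largest changes were those of SOS1, an exchange factor of RAS, on day 0 of KCl, at 3657 and 3588 against 1878 and 1797 (0.98, SE 0.09, adjusted p = 1.73e-10), of PIK3R1, a subunit of PI3 kinase, in RS (0.96, SE 0.13, adjusted p = 2.17e-07) and of the adaptor GAB1 on day 8 of KCl (0.83, SE 0.14, adjusted p = 2.51e-05). SOS1 was higher in 7 comparisons and PIK3R1 in 2, while GAB1 was lower in 6 and higher in 3.

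Of 12 inhibitors that act at the receptor, 2 were higher and 4 lower on day 0 of SDS, 4 and 3 on day 0 of KCl, and 2 and 5 on day 0 of DXR (medians -0.10, -0.02 and -0.02). CBLB, a ubiquitin ligase that takes receptors out of use, was at 1123 and 1047 counts on day 0 of SDS against 316 and 292 (1.83, SE 0.14, adjusted p = 2.81e-12) and was higher in 11 of 25 comparisons. LRIG3, a membrane protein of the LRIG family, was at 203 and 191 against 663 and 555 (-1.62, SE 0.18, adjusted p = 6.53e-09) and was lower in 10 and higher in 1. SOCS5, which promotes the breakdown of EGFR, was at 1140 and 1110 against 3369 and 3463 (-1.60, SE 0.10, adjusted p = 3.45e-14), and was lower in 5 and higher in 3.

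Of 15 genes that ERK signaling induces or that feed back on it, 14 passed the filter. On day 1 of SDS, the peak of AREG and EREG, 30.5% of all genes were called. Of this list 5 were higher and 1 lower there (median 0.30, against 0.01 over all genes). These were SPRY4 (1.13, SE 0.21, adjusted p = 0.000132), SPRY2 (1.07, SE 0.17, adjusted p = 2.16e-05), DUSP4 (0.95, SE 0.23, adjusted p = 0.00178), PHLDA1 (0.63, SE 0.15, adjusted p = 0.00188) and DUSP6 (0.46, SE 0.13, adjusted p = 0.00665), while SPRY1 was lower (-1.25, SE 0.31, adjusted p = 0.00222). SPRY2, SPRY4, PHLDA1, DUSP6 and the genes FOSL1 and ETV4 named next lie outside the rule for named genes and were chosen after their values were seen. Sprouty and DUSP proteins are known as inhibitors of RAS and ERK. On day 16 of SDS 6 were lower (median -0.30) and on day 16 of DXR 7 were lower and DUSP4 higher (median -0.39), among them FOSL1 at -1.33 and -1.44 (SE 0.13) and ETV4 at -1.45 and -1.75 (SE 0.17). The shares of all genes called in these 2 comparisons were 43.5% and 46.6%. How many of the list were called in other groups is not given here.

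The largest single changes in the ERK list were those of FOS, SPRY1 and DUSP4. FOS was at 1.66 and 8.82 normalized counts on day 4 of KCl against 37.9 and 38.3 (-2.94, SE 0.87, adjusted p = 0.016), its only fall, and was higher on day 0 of SDS (2.14, adjusted p = 0.0375), KCl (2.66, adjusted p = 0.00951) and DXR (2.33, adjusted p = 0.0324). SPRY1 was at 26.2 and 45.3 on day 0 of SDS against 155 and 157 (-2.15, SE 0.31, adjusted p = 5.25e-07), and was lower in 5 comparisons and higher in 1. DUSP4 was at 340 and 628 in RS against 92.2 and 127.1 (2.08, SE 0.23, adjusted p = 5.90e-09) and was higher in 12 of 25 comparisons and lower in 1.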

How the data were processed

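mRNA was sequenced from WI-38 cells, with 2 libraries in each of 26 groups. Per the labels, the authors used Trim Galore, HISAT2, HTSeq or featureCounts and DESeq2 with GRCh38; roles and versions are not given in the sources used here. The 52 deposited files hold 25 distinct tables, each comparing 1 group with untreated cells. The only column used was a signal, the mean of normalized counts that the authors computed over the 4 libraries of a table. The other 5 columns hold their comparisons (log2 fold change, its standard error, the ratio of these, p and adjusted p) and were not used. Other columns of per-sample values numbered 0.

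A mean of 4 whole counts over 4 size factors, printed with nearly all digits, admits 1 set of counts for most genes, and the count of each gene in each library was solved from it. In the 10 tables of full precision all 39968 genes above 0 were recovered, with a largest relative misfit of 6.6e-15. The other 15 tables have 10 digits, and that of DXR day 1 is partly cut to 7, which left 56148 genes recovered in all libraries. In a simulation 2000 of 2000 genes of full precision and 4498 of 4500 of the shorter kind came out right, and 0 came out wrong. It took the size factors as known, and for the shorter kind also the untreated counts. All shorter tables were printed to 10 digits in it, so it did not test the rows cut to 7 or the fitting of size factors. Recovered libraries carry no replicate number and are named by size. The row that names no gene was left out.

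Counts were divided by median-of-ratios size factors over 12887 genes. limma 3.58.1 (R 4.3.3; lmFit and eBayes with a trend) was fitted to log2(normalized count + 1) of all 52 libraries with 26 group means, for 12370 genes recovered everywhere with a mean of at least 10. With so few libraries it is the pooled spread of all groups that sets the error. Fold changes of low genes are understated by the pseudocount. The filter dropped ERBB2, so a second fit of 15629 genes that leaves out missing libraries, added after seeing the data, was used for it and for the pathway lists. On simulated counts for day 1 of SDS against untreated cells with 200 genes changed, 10.6% of 66 genes changed by 0.5 on the log2 scale were called, 72.7% of 66 changed by 1 and 97.1% of 68 changed by 2, and 29 of 150 calls were genes left unchanged, more than the nominal share. The simulation gave every gene the same spread and changed far fewer genes than the 3341 called in the data. Its shares are thus not those of the real test.

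The members and lists were chosen with earlier results of these data known. Genes named are the members, the 3 with the largest called change from untreated cells in each pathway list (over the comparisons in which a gene has library counts, so that genes such as TIMP3, which lacks them in 15 groups, may have larger changes that were not tested), the 3 nearest in pattern to HBEGF, AREG, EREG and EGFR, and markers. Gene positions and exon lengths are from GENCODE v29, and promoters of 8 of the 10 members are from RefSeq, taken by symbol. Windows on chromosome 8, where NRG1 lies, were left out. Counting error alone is covered by the limit of 3 counts for a gene at 0. The alternatives were library totals, no or a stricter filter (mean of at least 100), pseudocounts of 0.25 and 5, fits of the compared groups alone, a rule that adds a log2 fold change of 1, leaving out each library and, added after seeing the data, precision weights. Python 3.11.15, NumPy 2.4.6, pandas 2.3.3 and matplotlib 3.10.9 were used.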

Additional observations from a re-analysis of the deposited data

Results flagged for a closer look

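In 4 cases a difference between treatments in the step from day 0 to day 1 passed the test of the difference itself, which was added after the data were seen. EGF rose after SDS (2.41 on the log2 scale), against 0.09 after DXR and -0.81 after KCl, which were not called. Its step after SDS was higher by 2.32 (SE 0.60, adjusted p = 0.00216 in limma) than after DXR and by 3.22 (SE 0.60, adjusted p = 3.32e-05) than after KCl. The step of NRG1, which fell after KCl, was higher after SDS than after KCl by 0.94 (SE 0.21, adjusted p = 0.000353), and that of ERBB2 by 0.53 (SE 0.14, adjusted p = 0.00192). All 4 passed whichever 1 library of their groups was left out, with ranges of 1.83 to 2.80, 3.04 to 3.39, 0.81 to 1.07 and 0.49 to 0.57.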

How the results depend on the processing

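No value of the members called with all libraries changed direction under any alternative run. The calls of the pathway lists were not checked under these alternatives. Of the 54 calls against untreated cells 25 had a log2 fold change of at least 1, and with 1 library left out there were 33 to 60, the fewest without the larger untreated library and 41 without the smaller. Between treatments the 37 calls became 21 with the added fold rule and 23 of 96 tests with a mean of at least 100, and 31 to 43 with 1 library left out. From day 0 to day 1 the 5 calls became 2 of 12 tests with a mean of at least 100, and 4 to 6 with 1 library left out. The 3 differences of that step between treatments became 7 in fits of the compared groups alone, 5 with precision weights, chosen after seeing the data, and 5 without the smaller KCl day 0 library. The other counts stayed within 1.5 times, with 41, 28 and 5 calls in the 3 comparisons without a filter and 43, 35 and 7 with precision weights. With 1 library left out 34 of 62 called values against untreated cells, 13 of 42 between treatments, 3 of 6 of the step and 4 of 4 of its differences kept their call in every case, ERBB2 included, and a group then rests on 1 library assumed to vary like the others. The cause of the lost calls was not tested. No paired analysis was possible because the recovered counts carry no replicate number. With 2 libraries a group, changes under 1 on the log2 scale in genes of few reads, such as EGF, AREG and ERBB3, could mostly not be detected.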
